A study of Mus musculus with 4 samples.

Results

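Genes that drive cells through the division cycle were examined in stromal cells of the mouse large intestine. The list holds 39 genes named by symbol, from replication licensing factors to mitotic spindle proteins, and all 39 were found among the 23284 genes of each library. Messenger RNA was sequenced from living cells (7AAD-) of the whole colon sorted for Podoplanin, which marks fibroblasts and lymphatic vessels, and against CD45 (leukocytes), CD31 (endothelium) and EpCAM (epithelium). There were 4 libraries, with 1 library per group: wild type and Rag2 knockout on the BALB/c strain, and wild type and IL-10 knockout on the C57BL/6J strain. Rag2 is needed to assemble antigen receptors, so its loss removes mature T and B cells, and IL-10 is an anti-inflammatory cytokine whose loss is used as a model of colitis. No treatment is recorded, and the labels do not give the age of the animals, their number per library, or the kind of knockout allele. Replicate error cannot be measured and no test between groups was made, so "higher" and "lower" describe these libraries only.

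A cell that commits to division raises G1 cyclins, which release E2F transcription factors from the retinoblastoma protein family. E2F targets license replication origins and supply the enzymes of DNA synthesis. A later wave of genes, held down in resting cells by the DREAM complex through the CHR promoter element, builds the spindle and the checkpoint that guards chromosome segregation. Adult fibroblasts are mostly resting, whereas cells at the base of the intestinal crypt and activated leukocytes divide often.

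The estimated depth was between 8379000 and 9955000 fragments, a range of 1.19-fold, and between 11808 and 12301 genes reached 1 FPKM (fragment number divided by transcript length and library size). Pdpn, which encodes Podoplanin, had between 158.0 and 292.5 FPKM, and summed FPKM over 16 fibroblast markers was between 15389 and 17604. The labels were checked on the targeted genes. Il10 was at 129.9 FPKM under the label IL-10 knockout and between 3.33 and 7.04 FPKM in the other libraries, and Rag2 was at 0.712 FPKM under the label Rag2 knockout and was listed at 0 in the others. A whole-gene value cannot show the loss of part of a gene, so both libraries are called here by their labels, as the IL-10-labelled and the Rag2-labelled library. Igj, an antibody subunit made by plasma cells, had 1.36 FPKM in the Rag2-labelled library against 427.8 FPKM in BALB/c wild type. Ptprc, the gene of CD45, had 43.1 FPKM in the IL-10-labelled library and between 3.34 and 11.5 FPKM in the others. The female-specific Xist and the Y-linked Ddx3y were both expressed in C57BL/6J wild type, at 23.0 and 16.9 FPKM. In the IL-10-labelled library they had 44.9 and 0.0269 FPKM, so these sex-linked genes differ within that comparison. Both BALB/c libraries had at most 0.105 FPKM of Xist and at least 31.5 FPKM of Ddx3y.

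Promoter sequence is shown for 6 members on which the results turn, to set the elements of the division cycle beside the measured levels. The stretches are the 150 bases before a start of the gene in RefSeq (GRCm38.p6), 5′ to 3′ on the strand of the gene. They are from the C57BL/6J reference and not from the BALB/c genome. For Top2a the stretch reaches down to base 99024190 while the gene position extends to 99024199, so its last bases lie within the gene. Capitals mark the CHR (TTTGAA or TTCGAA), the CCAAT box (CCAAT) and E2F words (TTTCCCGC, TTTGGCGC, TTTGCCGC or TTTCGCGC), searched on both strands. Top2a and Ccnb2 were among the members higher in the IL-10-labelled library, and Cdc20 and Ccne1 were lower in both knockout libraries. Mcm6 differed between the BALB/c and C57BL/6J libraries, and Birc5 had the largest ratio of all members in the IL-10 comparison.
Top2a, chr11:99024190-99024339, minus strand: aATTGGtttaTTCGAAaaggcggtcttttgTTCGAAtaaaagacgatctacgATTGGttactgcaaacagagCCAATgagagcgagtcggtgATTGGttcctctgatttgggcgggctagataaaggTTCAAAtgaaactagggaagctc
Ccnb2, chr9:70421555-70421704, minus strand: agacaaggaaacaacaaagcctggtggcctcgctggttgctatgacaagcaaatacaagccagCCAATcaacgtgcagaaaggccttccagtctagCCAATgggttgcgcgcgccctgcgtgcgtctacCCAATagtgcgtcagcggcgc
Cdc20, chr4:118437344-118437493, minus strand: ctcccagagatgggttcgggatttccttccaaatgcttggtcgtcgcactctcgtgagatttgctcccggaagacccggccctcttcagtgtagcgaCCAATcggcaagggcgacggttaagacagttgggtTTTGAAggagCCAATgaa
Mcm6, chr1:128359706-128359855, minus strand: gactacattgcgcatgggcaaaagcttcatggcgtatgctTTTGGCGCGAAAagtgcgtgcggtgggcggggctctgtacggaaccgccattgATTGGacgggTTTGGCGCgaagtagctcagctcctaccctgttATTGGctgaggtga
Birc5, chr11:117849087-117849236, plus strand: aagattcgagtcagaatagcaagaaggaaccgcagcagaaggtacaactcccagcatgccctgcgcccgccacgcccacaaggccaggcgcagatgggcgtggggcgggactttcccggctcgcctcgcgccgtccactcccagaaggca
Ccne1, chr7:38107491-38107640, minus strand: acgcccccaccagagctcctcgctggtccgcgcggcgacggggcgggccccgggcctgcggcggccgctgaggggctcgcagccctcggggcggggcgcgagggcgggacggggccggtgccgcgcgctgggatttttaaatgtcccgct

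The Top2a stretch held 3 CHR and 4 CCAAT matches, and the Cdc20 stretch held 1 CHR and 2 CCAAT matches. Ccnb2 held 3 CCAAT matches and no CHR of these letters. Mcm6 held 2 CCAAT matches and 3 E2F matches, of which the first and second overlap. Birc5 and Ccne1 held none of these words in this window. Thus Top2a and Cdc20, which lay on opposite sides of 0 in the IL-10 comparison, both carried CHR and CCAAT words.

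Promoters were matched for 33 of the 39 members, with 36 promoters in all (Aurkb, Ccna2, Ccnd1, Kif20a, Mcm4 and Tpx2 were not matched). The CCAAT word was present in 27 of the 36 member promoters (75%), against 24.5% of the 32851 promoters of the table, all searched over the same 150 bases. A CHR word was present in 8 of 36 (22.2%), against 9.70% of all promoters, and CHR and CCAAT words stood together in 7 of 36 (19.4%), against 2.43%. Among the role groups, CHR words were in 4 of 9 promoters of the spindle, kinetochore and chromosome genes and in 0 of 7 promoters of the DNA synthesis genes. E2F words were in 4 of 36 member promoters (11.1%), against 1.24% of all, and 3 of the 4 belonged to licensing genes. The GC box (GGGCGG) was in 66.7% of member promoters and 28.6% of all. A match of letters is not evidence of binding.

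Most of the 39 genes were expressed at low levels in this sort. Members with at least 1 FPKM numbered 32 in the IL-10-labelled library, 25 in BALB/c wild type, 24 with the Rag2 label and 19 in C57BL/6J wild type. The median member level was 1.28 FPKM in BALB/c wild type, 1.47 FPKM in the Rag2-labelled library and 0.756 FPKM in C57BL/6J wild type, against 2.35 FPKM in the IL-10-labelled library. The IL-10-labelled library had the highest value of 26 members, and C57BL/6J wild type had the lowest value of 22. BALB/c wild type was highest for 8 members, and the Rag2-labelled library was lowest for 7. Pcna, the sliding clamp of DNA polymerases, stood far above the rest and above at least 94.7% of all genes in every library. Mki67, the gene of the proliferation marker Ki-67, lay above 45.2% of genes in C57BL/6J wild type and above 61.8% in the IL-10-labelled library.

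**Figure D1:**
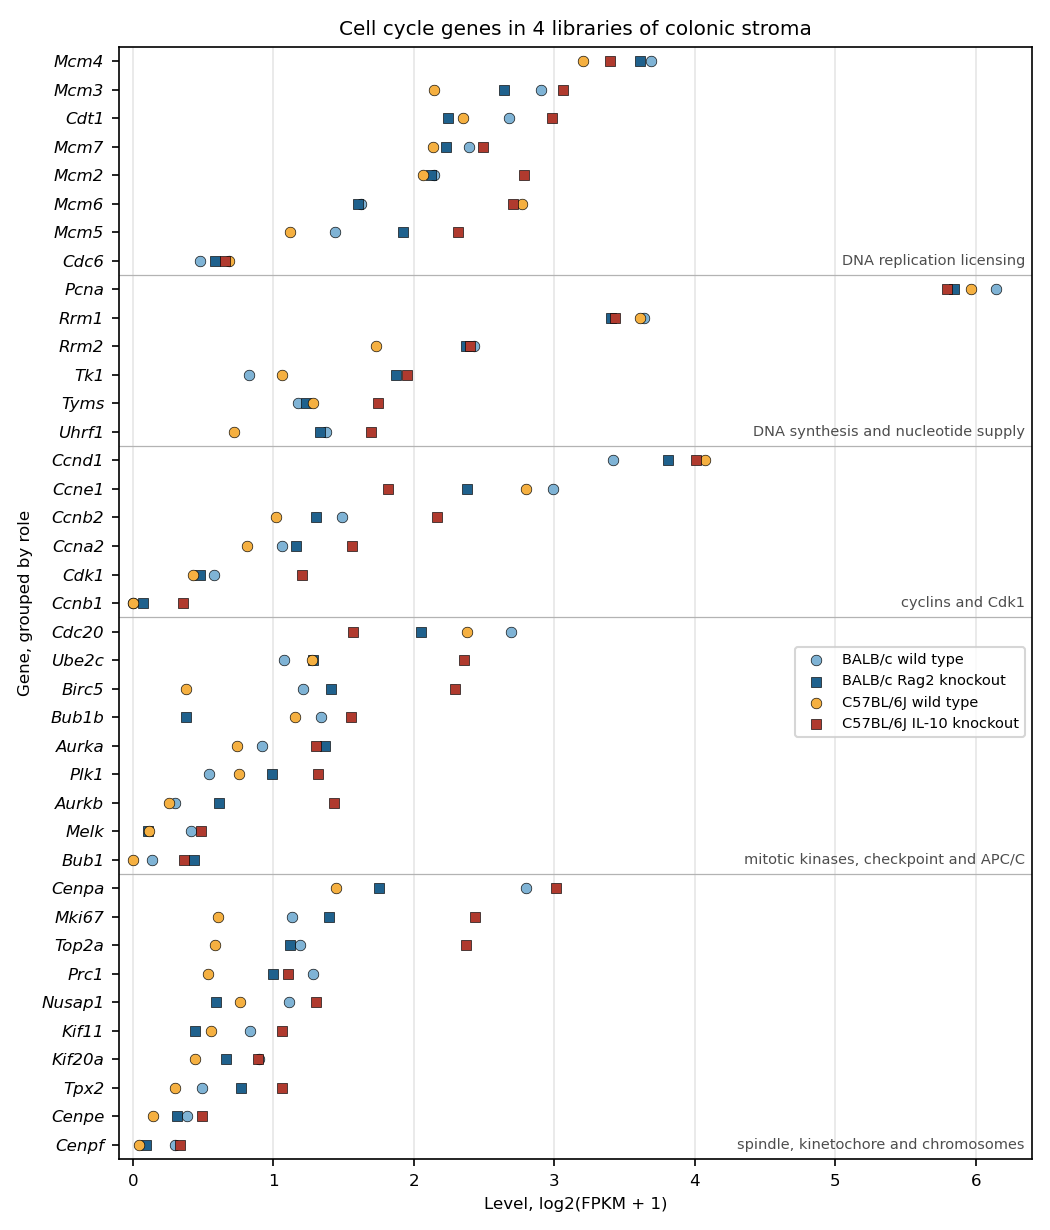
Levels of the 39 members on the x axis, as log2 of FPKM plus 1, with 1 row per gene grouped by role and 1 symbol per library. Each point is 1 library without error; the IL-10-labelled library is the highest for 26 members and C57BL/6J wild type the lowest for 22, while Pcna lies far to the right in all 4.

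In the comparison of the IL-10-labelled library with C57BL/6J wild type, 32 members had at least 1 FPKM in either library, and 8 of these were at least 2-fold higher on the scale of FPKM plus 1. Of all 12790 genes that passed the same filter, 10.1% were at least 2-fold higher. The 8 were Mki67, Top2a, Ccnb2, Birc5, Aurkb, Cenpa, Ube2c and Mcm5, which with the exception of the licensing factor Mcm5 act in or mark mitosis or the chromosomes that enter it. No member was at least 2-fold lower, against 3.82% of all genes. The median log2 ratio of the 32 members was 0.65, beside -0.0018 over all genes, and 26 of the 32 were above 0, beside 49.8% of all genes. These values depend on how low levels are treated. With a pseudocount of 0.1, 18 members were at least 2-fold higher (13.02% of all genes), and with a pseudocount of 5 none was (4.78% of all genes). Among the 10 members with at least 5 FPKM in either library, 1 was at least 2-fold higher (9.30% of all genes) and the median was 0.065. The 7 members left out by the filter were Ccnb1, Bub1, Cenpe, Cenpf, Kif20a, Melk and Cdc6, and a member that passed only by its higher library had to differ, so these counts are descriptions.

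In the comparison of the Rag2-labelled library with BALB/c wild type, 27 members passed the filter, 1 was at least 2-fold higher (Tk1) and 1 was at least 2-fold lower (Cenpa). Over all 12336 genes, 4.42% were higher and 2.03% lower by this measure. The median log2 ratio of members was -0.07, beside -0.0041 over all genes, and 9 of 27 were above 0, beside 49.5% of all genes. Of the 27 members that passed in both knockout comparisons, which share no library, 8 were higher in both, 5 were lower in both, 13 were higher in the IL-10 and lower in the Rag2 comparison, and 1 (Ccnd1) did the reverse. Of the 12048 genes that passed in both, 32.5% were higher in both, 34.3% lower in both, 15.9% higher in the IL-10 and lower in the Rag2 comparison, and 17.3% the reverse. When the libraries were scaled to the same FPKM sum without small RNA rows, the median of all genes moved to -0.13 in both knockout comparisons. The members at least 2-fold apart then numbered 7 higher and 1 lower in the IL-10 comparison and 0 higher and 2 lower in the Rag2 comparison. Over all genes, that scaling changed the split from 1297 higher and 488 lower to 1135 and 632 in the IL-10 comparison, and from 545 higher and 251 lower to 459 and 339 in the Rag2 comparison.

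BALB/c wild type was also compared with C57BL/6J wild type, and this pair shares a library with each of the comparisons above. The sex-linked genes differed here too, with Xist at 0.0509 and 23.0 FPKM and Ddx3y at 36.3 and 16.9 FPKM. With 1 library per group, strain, sex and single-library differences cannot be told apart in this pair. Among 26 members that passed, Cenpa was at least 2-fold higher and Mcm6 at least 2-fold lower in BALB/c, and over all 12290 genes 1.81% were higher and 2.17% lower. The median log2 ratio was 0.32, beside 0.0044 over all genes, and 21 of 26 members were higher in BALB/c wild type. The values of Ccnd1, Mcm6 and Cdc6 were highest of the 4 libraries in C57BL/6J wild type.

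**Figure D2:**
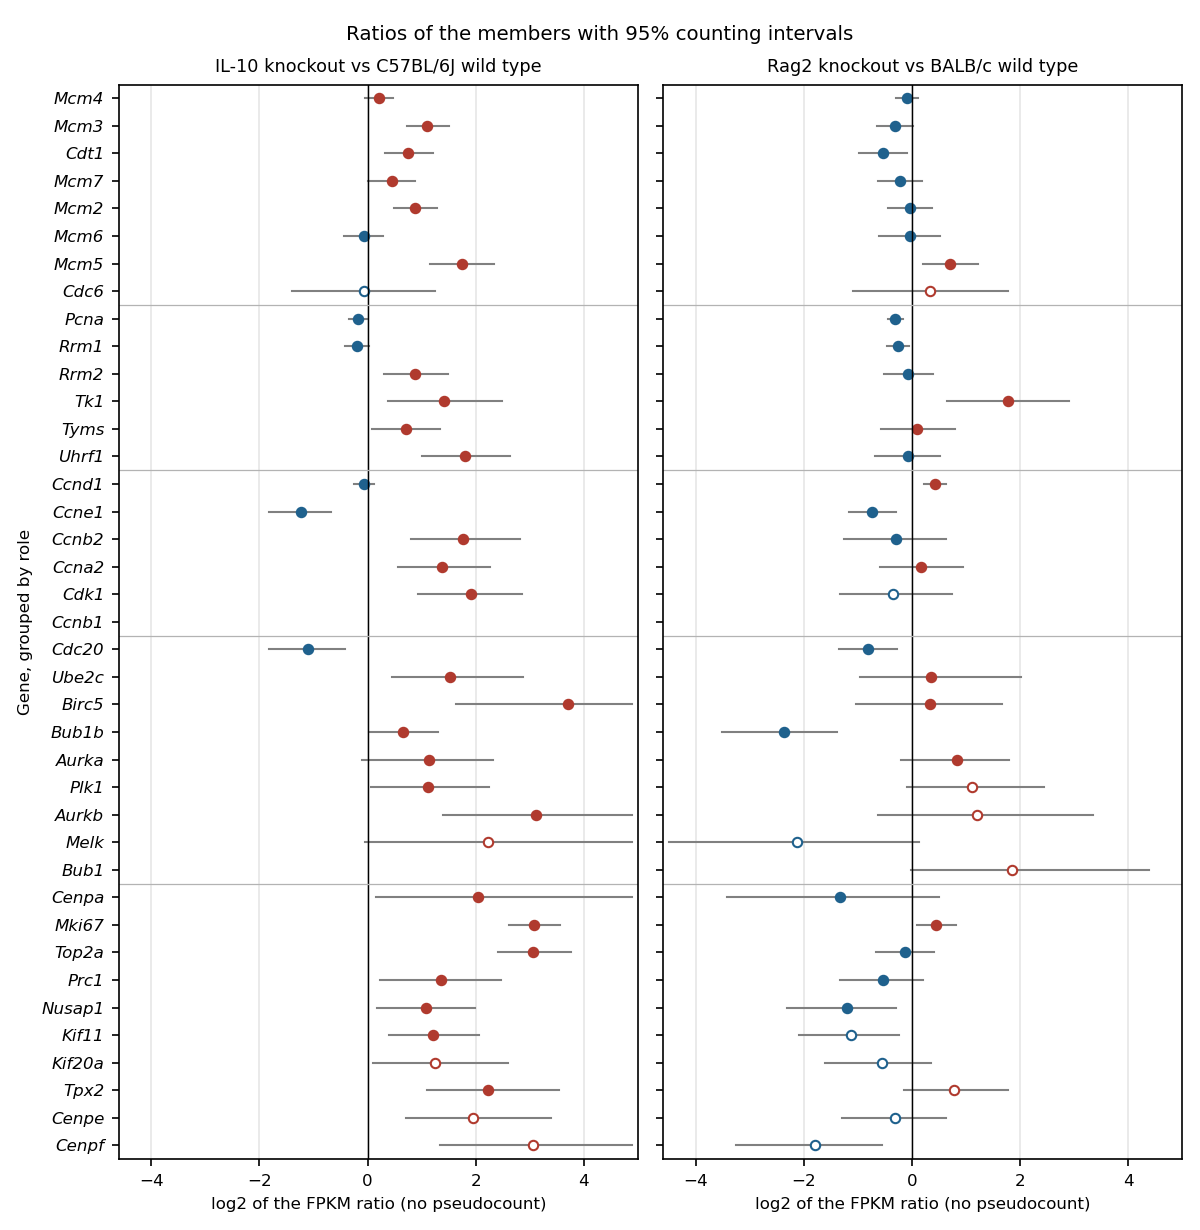
Log2 ratio of FPKM without pseudocount for each member (x axis) in the IL-10 comparison and the Rag2 comparison, with bars for the 95% interval of counting error and open circles for members that did not reach 1 FPKM in either library. Bars are cut at the edge of the axis, and members listed at 0 in a library of the pair are not drawn; most points of the IL-10 panel lie to the right of 0, with Ccne1 and Cdc20 to the left in both panels.

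Fragment numbers behind these values were estimated from FPKM, depth and the length of the shortest coding transcript of each gene matched to RefSeq. They give a 95% interval for the ratio of a pair of libraries that covers counting error only. PCR copies of 1 molecule are counted as separate fragments, and differences between animals or sorts are not in it. For the IL-10 comparison this interval lay above 0 for 28 members and below 0 for 3 (Ccne1, Cdc20 and Pcna), and over the 14245 genes with a matched coding transcript and a fragment in either library it lay above 0 for 25.2% and below 0 for 22.4%. For the Rag2 comparison it lay above 0 for 4 members (Mki67, Ccnd1, Mcm5 and Tk1) and below 0 for 9 (Ccne1, Bub1b, Cdc20, Cenpf, Kif11, Nusap1, Pcna, Rrm1 and Cdt1), beside 21% and 19.7% of such genes. Between the wild types it lay above 0 for 11 members and below 0 for Ccnd1 and Mcm6, beside 17.3% and 17.4%. Ratios given with such an interval are log2 ratios of FPKM with nothing added.

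The licensing genes load the replicative helicase onto origins. Mcm2 to Mcm7 encode the helicase ring, and Cdc6 and Cdt1 encode its loaders. Their 8 values summed to 35.7 FPKM in BALB/c wild type, 32.5 FPKM in the Rag2-labelled library and 29.9 FPKM in C57BL/6J wild type, against 44.3 FPKM in the IL-10-labelled library. The log2 ratio of these sums was 0.57 in the IL-10 comparison (95% counting interval 0.43 to 0.71) and -0.13 in the Rag2 comparison (-0.26 to -0.0041). The sum was thus highest in the IL-10-labelled library, and the other libraries lay closer together.

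Mcm5 had 1.72 FPKM in BALB/c wild type, 2.79 FPKM in the Rag2-labelled library and 1.17 FPKM in C57BL/6J wild type, against 3.96 FPKM in the IL-10-labelled library. Both knockout libraries were above their wild types, by 3.38-fold for IL-10 (log2 1.76, interval 1.15 to 2.34) and 1.63-fold for Rag2 (log2 0.70, interval 0.20 to 1.23). Mcm3 had 6.47 FPKM in BALB/c wild type, 5.24 FPKM in the Rag2-labelled library and 3.42 FPKM in C57BL/6J wild type, against 7.33 FPKM in the IL-10-labelled library. C57BL/6J wild type was the low sample for Mcm3, whereas the others had at least 5.24 FPKM. Mcm2 had 3.42, 3.36 and 3.18 FPKM in BALB/c wild type, the Rag2-labelled library and C57BL/6J wild type, against 5.87 FPKM in the IL-10-labelled library, which stood alone.

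Mcm6 (chromosome 1, 128331575 to 128359705) was alike within each strain pair and differed between the pairs. The BALB/c libraries had 2.08 FPKM in the wild type and 2.03 FPKM in the Rag2-labelled library, and those of C57BL/6J had 5.82 FPKM in the wild type and 5.52 FPKM in the IL-10-labelled library. The C57BL/6J values were about the same with and without the knockout, and both lay far above both BALB/c values. Between the wild types the level was 2.79-fold higher in C57BL/6J, and the log2 ratio of BALB/c over C57BL/6J was -1.48 (interval -1.96 to -1.02). Among the other members, Mcm4 ranged from 8.22 to 11.9 FPKM and Mcm7 from 3.40 to 4.62 FPKM. Cdt1 had 5.41 FPKM in BALB/c wild type, 3.74 FPKM in the Rag2-labelled library and 4.09 FPKM in C57BL/6J wild type, against 6.90 FPKM in the IL-10-labelled library, higher than its wild type in the IL-10 and lower in the Rag2 comparison. Cdc6 stayed between 0.394 and 0.608 FPKM.

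The genes of DNA synthesis and nucleotide supply are Pcna, the ribonucleotide reductase subunits Rrm1 and Rrm2, the thymidylate enzymes Tyms and Tk1, and Uhrf1, which helps copy DNA methylation. Their sum was 89.1 FPKM in BALB/c wild type, 75.9 FPKM in the Rag2-labelled library and 78.3 FPKM in C57BL/6J wild type, against 76.1 FPKM in the IL-10-labelled library. The sum was set by Pcna, which had 69.7 FPKM in BALB/c wild type, 56.5 FPKM in the Rag2-labelled library and 61.6 FPKM in C57BL/6J wild type, against 54.5 FPKM in the IL-10-labelled library. Pcna was lower in both knockout libraries than in their wild types (log2 -0.18 for IL-10 and -0.30 for Rag2), opposite to most members of the IL-10 comparison.

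Without Pcna, the 5 others summed to 19.5, 19.3 and 16.7 FPKM in BALB/c wild type, the Rag2-labelled library and C57BL/6J wild type, and to 21.5 FPKM in the IL-10-labelled library. Tk1, which recycles thymidine, had 0.777 FPKM in BALB/c wild type, 2.66 FPKM in the Rag2-labelled library and 1.08 FPKM in C57BL/6J wild type, against 2.87 FPKM in the IL-10-labelled library. Both knockout libraries were above both wild types, and Tk1 was 3.43-fold higher in the Rag2 comparison (log2 1.78, interval 0.66 to 2.91) and 2.65-fold higher in the IL-10 comparison (log2 1.41, interval 0.37 to 2.48). About 9.6 and 31.9 fragments stood behind the Rag2 pair.

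Uhrf1 had 1.60 FPKM in BALB/c wild type, 1.52 FPKM in the Rag2-labelled library and 0.644 FPKM in C57BL/6J wild type, against 2.24 FPKM in the IL-10-labelled library, with C57BL/6J wild type alone at the low end. Rrm2 had 4.37, 4.18 and 4.29 FPKM in BALB/c wild type, the Rag2-labelled and the IL-10-labelled library and 2.32 FPKM in C57BL/6J wild type, the same pattern. Its partner subunit Rrm1 varied little, between 9.60 and 11.5 FPKM, with the lower values in the knockout libraries. Tyms had between 1.26 and 1.43 FPKM in BALB/c wild type, the Rag2-labelled library and C57BL/6J wild type, against 2.35 FPKM in the IL-10-labelled library. Its sign in the Rag2 comparison (log2 ratio 0.06 with pseudocount 1) turned negative when libraries were scaled to the same FPKM sum.

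Cyclins turn on the kinases of the cycle: cyclin D1 (Ccnd1) in G1, cyclin E1 (Ccne1) at the start of S phase, cyclin A2 (Ccna2) in S phase and G2, and the B cyclins with Cdk1 at mitosis. In the IL-10 comparison Ccne1 was lower, Ccnd1 nearly equal, and Ccna2, Ccnb2 and Cdk1 higher. Ccne1 (chromosome 7, 38097984 to 38107490) had 6.94 FPKM in BALB/c wild type, 4.19 FPKM in the Rag2-labelled library and 5.95 FPKM in C57BL/6J wild type, against 2.52 FPKM in the IL-10-labelled library. Both knockout libraries were below both wild types. The level was 2.36-fold lower in the IL-10 comparison (log2 -1.24, interval -1.82 to -0.67) and 1.66-fold lower in the Rag2 comparison (log2 -0.73, interval -1.16 to -0.30).

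Ccnd1 had 9.67 FPKM in BALB/c wild type, 13.02 FPKM in the Rag2-labelled library and 15.8 FPKM in C57BL/6J wild type, against 15.1 FPKM in the IL-10-labelled library. The C57BL/6J pair was nearly equal (log2 -0.07, interval -0.26 to 0.12), and both lay above the BALB/c pair. Ccnb2 had 1.80 FPKM in BALB/c wild type, 1.47 FPKM in the Rag2-labelled library and 1.03 FPKM in C57BL/6J wild type, against 3.48 FPKM in the IL-10-labelled library. Ccnb2 was 3.38-fold higher in the IL-10 comparison (log2 1.76, interval 0.80 to 2.83), with the IL-10-labelled library above all others.

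Cdk1 had 0.491 FPKM in BALB/c wild type, 0.389 FPKM in the Rag2-labelled library and 0.345 FPKM in C57BL/6J wild type, against 1.30 FPKM in the IL-10-labelled library, again with the last of these apart. Ccna2 had between 0.756 and 1.23 FPKM in the first 3 of those libraries and 1.95 FPKM in the IL-10-labelled library. Ccnb1 was listed at 0 in both wild types, at 0.0489 FPKM in the Rag2-labelled library and at 0.282 FPKM in the IL-10-labelled library, and no fold is given. A pseudogene, Ccnb1-ps, shares 99.2% of its bases with Ccnb1 over 1287 bases. Gapdh, which nearly every cell expresses and which also has many such copies, was listed between 0.196 and 0.349 FPKM, and a low value of a gene with copies is not read here as absence.

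The mitotic kinases, the spindle checkpoint and the ubiquitin ligase that ends mitosis (APC/C) had 9 members. Their sum was 11.4 FPKM in BALB/c wild type, 10.04 FPKM in the Rag2-labelled library and 8.79 FPKM in C57BL/6J wild type, against 17.3 FPKM in the IL-10-labelled library. The sum was 1.96-fold higher in the IL-10 comparison (log2 0.97, interval 0.62 to 1.32), and in the Rag2 comparison its interval spanned 0 (log2 -0.19, interval -0.53 to 0.15).

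Birc5, which encodes survivin of the chromosomal passenger complex, had 1.31 FPKM in BALB/c wild type, 1.66 FPKM in the Rag2-labelled library and 0.299 FPKM in C57BL/6J wild type, against 3.89 FPKM in the IL-10-labelled library. About 1.9 fragments stood behind the C57BL/6J wild type value and about 24.2 behind that of the IL-10-labelled library, so the interval of the log2 ratio of 3.70 ran from 1.63 to 6.77. Aurkb, the kinase of the same complex, had 0.229 FPKM in BALB/c wild type, 0.530 FPKM in the Rag2-labelled library and 0.196 FPKM in C57BL/6J wild type, against 1.70 FPKM in the IL-10-labelled library. For both genes C57BL/6J wild type was the lowest and the IL-10-labelled library the highest.

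Ube2c, the ubiquitin-conjugating enzyme of the APC/C, had 1.11 FPKM in BALB/c wild type, 1.43 FPKM in the Rag2-labelled library and 1.42 FPKM in C57BL/6J wild type, against 4.12 FPKM in the IL-10-labelled library, which stood apart. Cdc20, which activates the APC/C, behaved otherwise. It had 5.47 FPKM in BALB/c wild type, 3.14 FPKM in the Rag2-labelled library and 4.21 FPKM in C57BL/6J wild type, against 1.96 FPKM in the IL-10-labelled library. Both knockout libraries were below both wild types, as for Ccne1, by 2.14-fold in the IL-10 comparison (log2 -1.10, interval -1.83 to -0.41) and 1.74-fold in the Rag2 comparison (log2 -0.80, interval -1.34 to -0.28).

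Bub1b, the BubR1 checkpoint kinase, had 1.53 FPKM in BALB/c wild type, 0.298 FPKM in the Rag2-labelled library and 1.22 FPKM in C57BL/6J wild type, against 1.93 FPKM in the IL-10-labelled library. The Rag2-labelled library was the low one, 5.15-fold below its wild type (log2 -2.37, interval -3.51 to -1.38, from about 52.9 and 10 fragments), while on the scale of FPKM plus 1 the log2 ratio was -0.97 and just short of 2-fold. Plk1, a kinase of mitotic entry, had 0.452 and 0.982 FPKM in BALB/c wild type and the Rag2-labelled library, and 0.688 and 1.49 FPKM in C57BL/6J wild type and the IL-10-labelled library. Aurka, the spindle pole kinase, had 0.886, 1.58, 0.674 and 1.47 FPKM in that order. Plk1 and Aurka were thus higher in both knockout libraries, with intervals that spanned 0 for Aurka in both comparisons and for Plk1 in the Rag2 comparison. The kinases Bub1 and Melk stayed at or below 0.396 FPKM.

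The spindle, kinetochore and chromosome genes showed the widest spread of the 5 role groups. Their 10 values summed to 13.6 FPKM in BALB/c wild type, 8.63 FPKM in the Rag2-labelled library and 5.09 FPKM in C57BL/6J wild type, against 22.0 FPKM in the IL-10-labelled library. The sum was 4.32-fold higher in the IL-10 comparison (log2 2.11, interval 1.41 to 2.81), and it was lower in the Rag2 comparison (log2 -0.65, interval -1.24 to -0.07). Cenpa, with few estimated fragments, made up much of that fall. Without it, an alternative chosen after seeing the data, the sum went from 7.63 FPKM in BALB/c wild type to 6.25 FPKM in the Rag2-labelled library (log2 -0.29, interval -0.53 to -0.05), while the IL-10 value was 2.15. BALB/c wild type was 2.67-fold above C57BL/6J wild type (log2 1.42, interval 0.66 to 2.17), so part of the distance from C57BL/6J wild type was also seen between the wild types.

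Mki67 (chromosome 7, 135689784 to 135716450), which coats mitotic chromosomes, had 1.19 FPKM in BALB/c wild type, 1.63 FPKM in the Rag2-labelled library and 0.521 FPKM in C57BL/6J wild type, against 4.40 FPKM in the IL-10-labelled library. Its long transcript gave about 44.8 and 363.6 fragments in the IL-10 comparison, in which the level was 8.44-fold higher (log2 3.08, interval 2.62 to 3.55). In the Rag2 comparison the level was 1.37-fold higher (log2 0.46, interval 0.10 to 0.81), and BALB/c wild type was 2.28-fold above C57BL/6J wild type.

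Top2a, the topoisomerase that untangles sister chromatids (chromosome 11, 98992947 to 99024199), had 1.28 FPKM in BALB/c wild type, 1.17 FPKM in the Rag2-labelled library and 0.502 FPKM in C57BL/6J wild type, against 4.18 FPKM in the IL-10-labelled library. The BALB/c pair was alike, and the C57BL/6J pair held the lowest and the highest value, 8.33-fold apart (log2 3.06, interval 2.41 to 3.77). Cenpa, the histone that marks centromeres, had 5.95 FPKM in BALB/c wild type, 2.37 FPKM in the Rag2-labelled library and 1.72 FPKM in C57BL/6J wild type, against 7.06 FPKM in the IL-10-labelled library. The shortest coding transcript of Cenpa matched to RefSeq, which set the estimate, is 369 bases long. With this length, at most about 9.7 fragments stood behind any of these values. A longer transcript would give more fragments and a narrower interval. On this estimate the interval of Cenpa spanned 0 in the Rag2 comparison (log2 -1.33, interval -3.41 to 0.51) and between the wild types.

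Prc1, which bundles the central spindle, had 1.43 FPKM in BALB/c wild type, 0.993 FPKM in the Rag2-labelled library and 0.449 FPKM in C57BL/6J wild type, against 1.15 FPKM in the IL-10-labelled library. Here BALB/c wild type was the highest. Nusap1, a microtubule-binding spindle protein, had 1.16, 0.505, 0.694 and 1.47 FPKM in that order, with the Rag2-labelled library lowest. Kif11, the motor that separates spindle poles, had 0.783, 0.358, 0.471 and 1.08 FPKM and the same lowest and highest libraries. Tpx2, a spindle assembly factor, had 0.406, 0.702, 0.231 and 1.08 FPKM. The motors Cenpe and Kif20a and the kinetochore protein Cenpf stayed below 1 FPKM in every library, and each was lowest in C57BL/6J wild type.

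**Figure D3:**
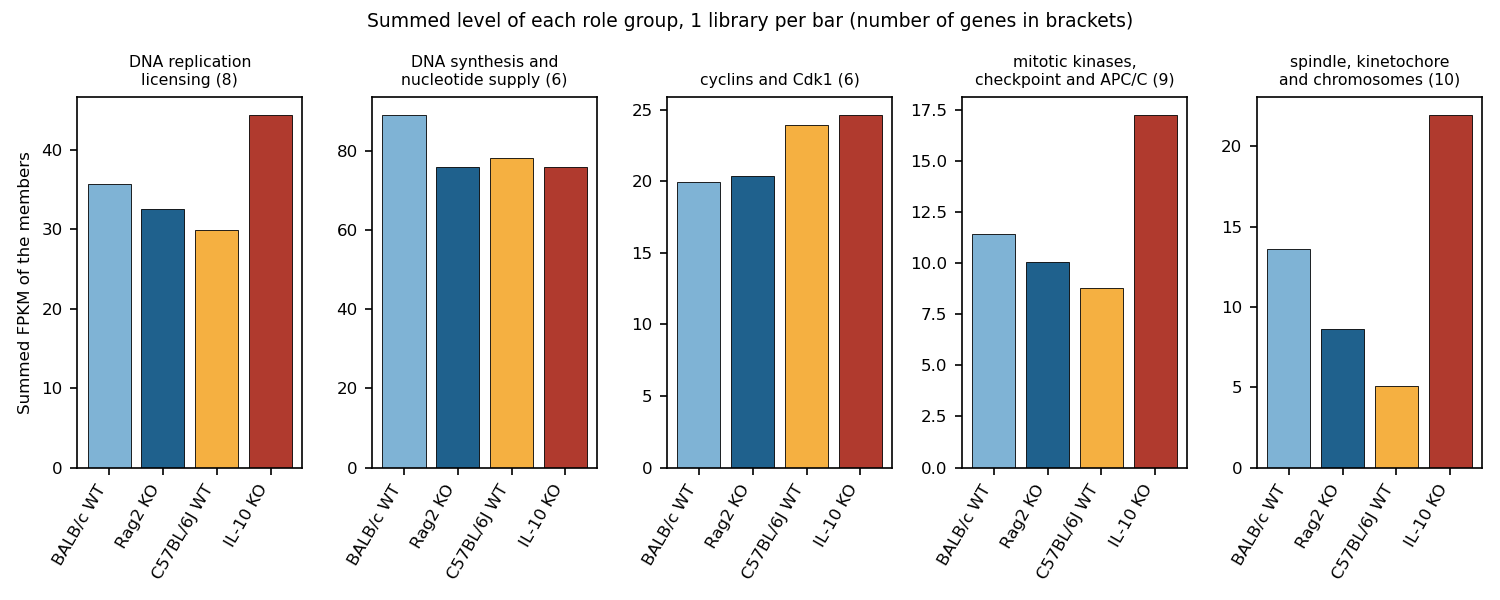
Summed FPKM (y axis, from 0, with its own scale in each panel) of the 5 role groups in each of the 4 libraries, 1 value per library and without replicate error. The spindle group goes from 5.09 FPKM in C57BL/6J wild type to 22.0 FPKM in the IL-10-labelled library, while the DNA synthesis group, which Pcna dominates, differs little.

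Over all 39 members the sum was 169.8 FPKM in BALB/c wild type, 147.4 FPKM in the Rag2-labelled library and 146.0 FPKM in C57BL/6J wild type, against 184.3 FPKM in the IL-10-labelled library. Its log2 ratio was 0.34 in the IL-10 comparison (interval 0.25 to 0.42) and -0.20 in the Rag2 comparison (-0.29 to -0.12). Without Pcna the IL-10 value was 0.62. The 19 mitotic members together summed to 25.01, 18.7 and 13.9 FPKM in BALB/c wild type, the Rag2-labelled library and C57BL/6J wild type, and to 39.2 FPKM in the IL-10-labelled library.

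Other genes of the division cycle were taken from 7 further lists. Of 64 mitosis and cytokinesis genes found, 28 passed the filter in the IL-10 comparison, with a median log2 ratio of 0.54. Of these, 5 were at least 2-fold higher and none lower, beside 10.1% and 3.82% of all genes. The 5 were Cdca3, Mad2l1, Tacc3, Racgap1 and Cenpm, the last named after its value was seen. Mad2l1, a spindle checkpoint protein, had 2.64 FPKM in BALB/c wild type, 1.97 FPKM in the Rag2-labelled library and 1.21 FPKM in C57BL/6J wild type, against 4.39 FPKM in the IL-10-labelled library. Of 33 replication factors that passed, 4 were at least 2-fold higher (Gmnn, Gins1, Lig1 and 2810417H13Rik) and none lower, with a median of 0.34, and this count is near the 10.1% of all genes that were at least 2-fold higher. Lig1, the replicative DNA ligase, had 3.65, 4.16, 2.28 and 6.02 FPKM in the order just given. For both genes shown, C57BL/6J wild type was lowest and the IL-10-labelled library highest.

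Regulators that act before the division program were examined next. Of 18 RB, E2F and DREAM-MuvB genes that passed, none was 2-fold apart in the IL-10 comparison (median 0.11), with E2f2 closest at a log2 ratio of 0.99. Of 12 G1 cyclins, CDKs and CDC25 genes none was 2-fold apart (median -0.13), and Ccnd2, a G1 cyclin, was the most different at 12.4 FPKM in C57BL/6J wild type against 22.8 FPKM in the IL-10-labelled library. Of 5 CDK inhibitors that passed none was 2-fold apart (median 0.08). Cdkn1a, the p21 inhibitor, was abundant in all libraries at 320.9 FPKM in BALB/c wild type, 271.9 FPKM in the Rag2-labelled library and 288.7 FPKM in C57BL/6J wild type, against 253.9 FPKM in the IL-10-labelled library. Of 16 quiescence and growth arrest genes none was 2-fold apart, 13 were below 0, and the median was -0.18.

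In the list of growth factor-induced and MYC genes, 1 of 11 was at least 2-fold higher in the IL-10 comparison and 1 lower. Over all genes the shares were 10.1% and 3.82%, and the median of the list was -0.08. Mxd1, an antagonist of MYC, had 17.6 FPKM in BALB/c wild type, 30.3 FPKM in the Rag2-labelled library and 15.1 FPKM in C57BL/6J wild type, against 53.6 FPKM in the IL-10-labelled library. Mycn, a MYC family gene, had 7.51, 4.06, 10.5 and 1.60 FPKM in the same order. Mxd1 was therefore above and Mycn below the wild type in both knockout libraries. In the Rag2 comparison no gene of the 7 lists was 2-fold apart, and their medians ran from -0.30 for quiescence genes to 0.03 for replication factors. Between the wild types Pkmyt1, which encodes an inhibitory kinase of Cdk1, and Pttg1, the gene of the anaphase inhibitor securin, were at least 2-fold lower in BALB/c. Both are named after their values were seen. Pttg1 had BALB/c levels of 16.4 FPKM in the wild type and 8.73 FPKM in the Rag2-labelled library. Its C57BL/6J levels were 57.2 FPKM in the wild type and 52.5 FPKM in the IL-10-labelled library. As for Mcm6, both C57BL/6J levels lay above both BALB/c levels. Unlike Mcm6, Pttg1 also differed within the BALB/c pair (log2 ratio -0.84 with pseudocount 1).

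Markers of other cell types also differed between these libraries. Summed FPKM of 11 pan-leukocyte markers was 140.2 in BALB/c wild type, 205.3 FPKM in the Rag2-labelled library and 79.6 in C57BL/6J wild type, against 756.9 in the IL-10-labelled library, and 11 of 11 were at least 2-fold higher in the IL-10 comparison. For 19 T cell and innate lymphoid markers the sums were 98.2, 131.0, 73.9 and 270.2 FPKM in that order, with 16 of 18 that passed at least 2-fold higher. Thy1, which is also in the fibroblast list, gave 61.7, 102.8, 58.4 and 88.3 FPKM of these sums. In the Rag2 comparison 4 of 16 T cell and innate lymphoid markers were at least 2-fold lower and 1 higher, beside 2.03% and 4.42% of all genes. Their median log2 ratio there was -0.35, so the higher sum in the Rag2-labelled library does not describe most of them. The 18 macrophage and monocyte markers summed to 409.6, 884.4, 228.5 and 1782 FPKM. In the IL-10 comparison 15 of 17 were at least 2-fold higher. For each of these leukocyte sums, C57BL/6J wild type was the lowest and the IL-10-labelled library the highest.

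The 14 neutrophil and mast cell markers summed to 27.5, 246.4, 13.4 and 3875 FPKM in that order, with 10 of 11 higher, and the mast cell gene Ms4a2 was listed at 0 in all 4 libraries. The 12 B and plasma cell markers summed to 639.9, 270.0, 488.5 and 735.6 FPKM, with 8 of 12 higher in the IL-10 comparison and 10 of 12 at least 2-fold lower in the Rag2 comparison. The 21 epithelial markers summed to 67.2, 232.9, 143.2 and 617.1 FPKM, with 19 of 20 higher in the IL-10 and 15 of 19 in the Rag2 comparison. The 10 crypt base and cycling epithelium markers summed to 60.9, 47.2, 75.5 and 57.4 FPKM, with 2 of 8 higher and 1 lower in the IL-10 comparison. The Rag2-labelled library thus had more macrophage, neutrophil and epithelial marker RNA than BALB/c wild type, and less B and plasma cell marker RNA.

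Of 16 fibroblast markers none was at least 2-fold higher and 2 were lower in the IL-10 comparison (Col6a1 and Col6a2, named after their values were seen), beside 3.82% of all genes lower, and none was 2-fold apart in the Rag2 comparison. Among smooth muscle and myofibroblast markers, 10 of 11 were at least 2-fold lower for IL-10 and 7 of 11 for Rag2. The part of these cell types in the levels of the members was not tested. In a bulk library, fewer cells of a type and less RNA per cell cannot be told apart, nor can more dividing cells and more of these transcripts per dividing cell.

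**Figure D4:**
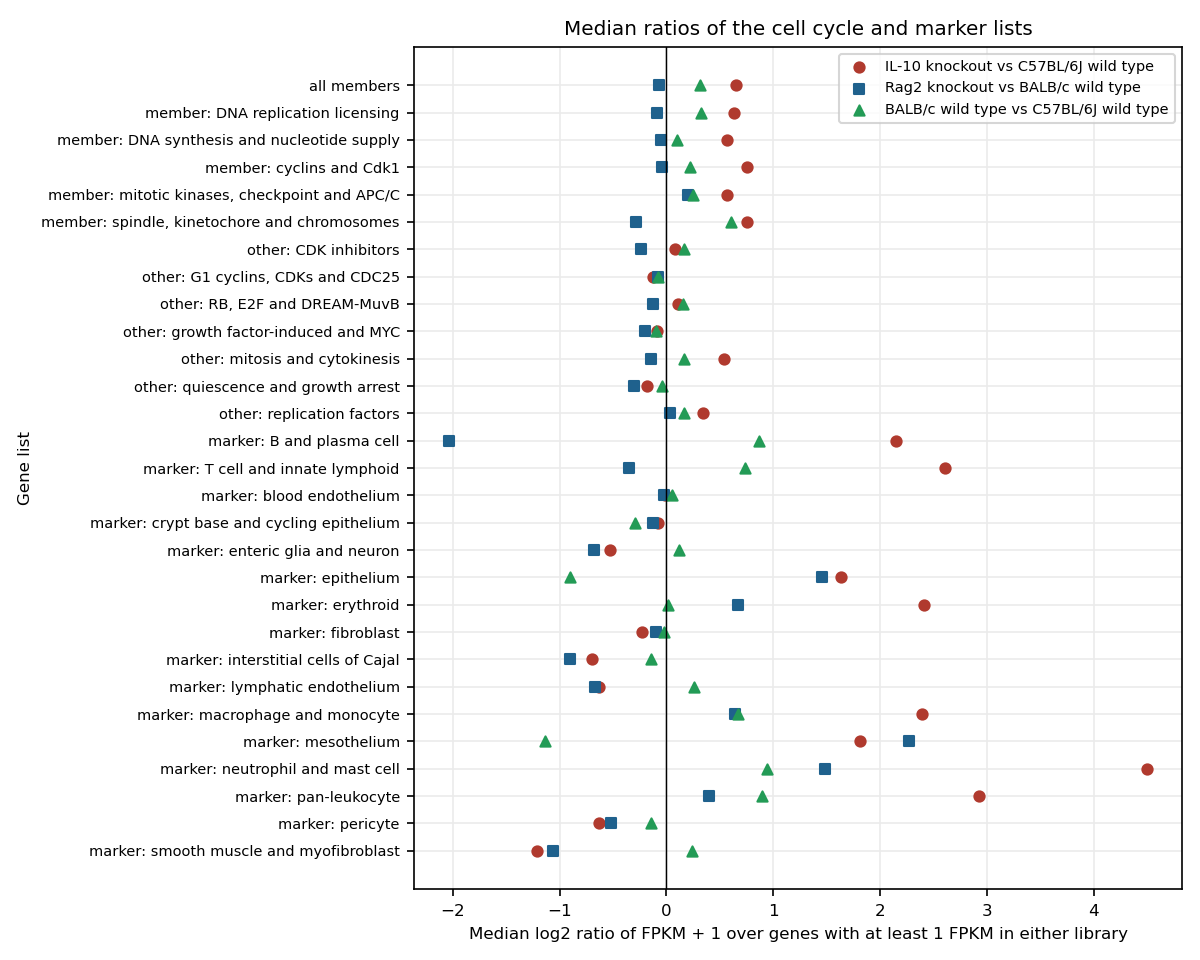
Median log2 ratio of FPKM plus 1 (x axis) for the 39 members, their 5 role groups, 7 other lists of the division cycle and 16 lists of cell type markers (y axis), with 1 symbol per comparison and no error, since each group has 1 library. Over genes with at least 1 FPKM in either library, the members lie at 0.65 for IL-10 and at -0.07 for Rag2. For IL-10 the leukocyte, epithelium (1.64), mesothelium (1.82) and erythroid (2.42) lists lie further right. Furthest left for IL-10 are smooth muscle (-1.21), interstitial cells of Cajal (-0.70), lymphatic endothelium (-0.63) and pericyte (-0.63).

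Overlapping genes or near-identical copies touch 13 members. Exons of Ccna2, Ccnd1, Kif20a, Mcm7, Nusap1, Prc1, Top2a and Ube2c overlap those of another annotated gene by at least 100 bases, mostly on the opposite strand, and the strand setting of the counting is not given in the sources used here. Not counted among the 13 are the shorter overlaps of Cdc20 (53 bases) and Tk1 (83 bases) and an overlap of 156 bases between Plk1 and an unverified transcript. Near-identical copies exist for Ccnb1, Cdc6, Mcm7, Pcna, Rrm2 and Uhrf1. Without these 13 members the log2 ratio of the sum was 0.63 in the IL-10 comparison.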

How the data were processed

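The authors deposited FPKM per gene symbol for 4 libraries (miRNeasy total RNA, TruSeq stranded mRNA, per the labels' protocols). Cuffdiff 2.2.1, TopHat2 2.1.1, SAMtools 0.1.18 and Bowtie2 2.2.8 on mm10 are named per the submitters' processing notes. Which annotation and strand setting were used is not given in the sources used here.

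Ratios were computed as log2 of FPKM plus 1 over genes with at least 1 FPKM in either library, and a 2-fold difference was counted, with Python 3.11.15 and pandas 2.3.3. Depth was estimated from the 1-fragment steps of genes with 1 transcript of at least 1000 nt. Counting intervals (95%, exact Clopper-Pearson for genes and a normal approximation for sums) used SciPy 1.17.1. Lengths were those of the shortest RefSeq-matched coding transcript of each gene in GENCODE vM21. Of 11 member values of 1 to 6 fragments, 8 lay within 0.15 of a whole fragment. Positions and promoters are from RefSeq, GRCm38. The code was tested on simulated data. Named genes of the other lists were the 4 with the largest absolute ratio in the IL-10 comparison. For each marker list the sums were used. Members and lists were chosen with earlier results of these data known. No test was made, since each group has 1 library. Alternatives were another pseudocount, filter or scaling, and leaving out members.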

Additional observations from a re-analysis of the deposited data

How the results depend on the processing

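Of 90 alternative values, 65 stayed close to the reported ones, 25 moved and none changed sign. Close means within 1.5 times for a count, within the 95% binomial interval of the median over members, or within the counting interval of a sum, so a median such as -0.17 for Rag2 after scaling to the same FPKM sum (reported -0.07) counts as close. No paired analysis was possible because each group has 1 library. With a pseudocount of 0.1 the IL-10 comparison had 18 members at least 2-fold higher and 2 lower (median 1.04), the Rag2 comparison 3 lower, and the wild types 6 higher, beside 13.02%, 6.15%, 4.31% and 3.88% of all genes. With a pseudocount of 5 the counts higher were 0 in all 3 comparisons, those lower 0 in the Rag2 comparison and between the wild types, and the medians 0.23 (IL-10) and 0.15 (wild types). With at least 5 FPKM in either library, 10 members remained for IL-10 (1 higher, median 0.065) and 9 for Rag2 (0 higher, median -0.30). Scaling to the same FPKM sum gave 1 lower (Ccne1, log2 -1.09) and a summed ratio of 0.20 for IL-10, and 0 higher, 2 lower (Cenpa and Bub1b) and -0.35 for Rag2. Scaling to the same upper quartile gave 1 lower for IL-10. Without Pcna, the member with the highest FPKM, the summed IL-10 ratio was 0.62. Without members that overlap a gene or have a copy, an alternative chosen after seeing the data, the summed ratio was 0.63 for IL-10 and 0.34 between the wild types. A larger pseudocount shrinks ratios of low genes by construction. The cause of the other shifts was not tested. Over all these alternatives the member median stayed between 0.065 and 1.04 for IL-10, between -0.30 and -0.03 for Rag2 and between 0.15 and 0.43 for the wild types. Most members rest on few fragments, which limits single ratios.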
